A study of Homo sapiens with 6 samples.

Results

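The genes of the myosin motor family were examined in HK-2 cells, an immortalised cell line from the proximal tubule of the human kidney. The family was defined by gene symbol and comprised the protein-coding genes for conventional heavy chains (*MYH*), unconventional heavy chains (*MYO*), light chains (*MYL*) and light chain kinases (*MYLK*). It held 49 of the 29483 genes in the table: 9 conventional heavy chains, 25 unconventional heavy chains, 11 light chains and 4 kinases. A further 7 genes of the family (*MYH1*, *MYH2*, *MYH4*, *MYH6*, *MYH8*, *MYL1* and *MYL10*) were not analysed here. Both groups were HK-2 cells kept in medium with 25 mM high glucose (HG) for 7 days. For 1 further day in HG, TEPP-46, a compound that activates the glycolytic enzyme PKM2 by favouring its tetramer, was added at 10 μM to the cells of the case group and not to those of the control group. Each group had 3 replicates of this one line. The study calls its replicates independent and separately treated, and whether they were also cultured apart before that is not given, so the p-values measure the spread between these 6 libraries, which may be partly technical. Neither a culture in normal glucose nor a vehicle control was analysed here.

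Myosins walk along actin filaments by splitting ATP. A heavy chain carries the motor, and light chains clasp its neck. Conventional, or class II, myosins pair their heavy chains through a long coiled coil and assemble into bipolar filaments that pull on actin, and outside muscle they drive cell rounding, cytokinesis, tension at junctions and traction on the matrix. Phosphorylation of the regulatory light chain switches these filaments on. Unconventional myosins do not form such filaments and carry vesicles, tether membranes to actin or extend cell protrusions, and in the renal tubule they are known for their work in the brush border and in endocytic traffic.

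The values were FPKM, in which read counts are divided by exonic length and by sequencing depth. Levels of different genes can be compared only as far as these exonic lengths match the lengths of the transcripts. The match differed between genes. The exonic lengths were 4609 bases for *MYL6* and 2821 for *MYL9*, whereas their canonical transcripts have 708 and 2786 bases. The reads on genes that the values implied were 18596702, 17886568 and 17343416 in control replicates 1, 2 and 3, and 16678940, 16013504 and 15330496 in case replicates 1, 2 and 3. Replicates spread more in the case group, where the median SD over all tested genes was 0.19 on the log2 scale against 0.09 in the control group, and over the tested myosin genes the medians were 0.20 and 0.06. The label of the cells was checked against markers. The epithelial keratins *KRT8*, *KRT18*, *KRT19* and *KRT7* were abundant in all 6 libraries (158 to 407 FPKM). The proximal tubule transporters and receptors *LRP2*, *CUBN*, *SLC34A1* and *AQP1* were at or below 0.123 FPKM in each library. The further renal markers *PAX8*, *PAX2*, *HAVCR1*, *GGT1* and *ANPEP* were at or below 0.206 FPKM. The epithelial part of the label was thus borne out, and its renal part was not borne out by these markers.

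Of the 49 genes, 26 had a mean of at least 0.5 FPKM and were tested. Among these, 7 were differentially expressed (DE) genes in limma at an adjusted p of at most 0.05, 6 of them downregulated (*MYO18A*, *MYH10*, *MYO10*, *MYLK*, *MYH14* and *MYO6*) and 1 upregulated (*MYL12B*) in the case group. Over all 13599 tested genes, 13.2% were DE genes, with 5.84% downregulated and 7.34% upregulated, whereas 23.1% of the tested myosin genes were downregulated and 3.85% upregulated. Every case library was below every control library in 16 of the 26 genes (61.5%) after the libraries were scaled to each other, and above in 2, where the shares over all tested genes were 20.4% and 19.5%. By kind of chain, 5 of 19 heavy chains were downregulated and 0 upregulated, and 0 of 6 light chains were downregulated and 1 upregulated. The heavy chain genes are the longer ones, and after a correction for exonic length, described further on, 1 light chain (*MYL9*) was downregulated and 0 upregulated. At an unadjusted p under 0.05 in limma, 14 heavy chains were lower and 0 higher, and 1 light chain was lower and 2 higher, where 16.2% and 16.8% of all tested genes were lower and higher (33.1% in either direction). In limma voom, a fit on the read counts recovered from the FPKM values, 12 heavy chains were downregulated and 0 upregulated, and 0 and 2 light chains, where 10.9% and 9.42% of all tested genes were downregulated and upregulated. The balance depended on the scaling: on the TPM scale, which sets the FPKM sums equal, 383 genes of the table were upregulated and 2387 downregulated in place of 998 and 794, with 0 and 16 of the myosin genes. The RNA came from whole cultures, so fewer cells of one kind and less RNA per cell cannot be told apart.

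**Figure D1:**
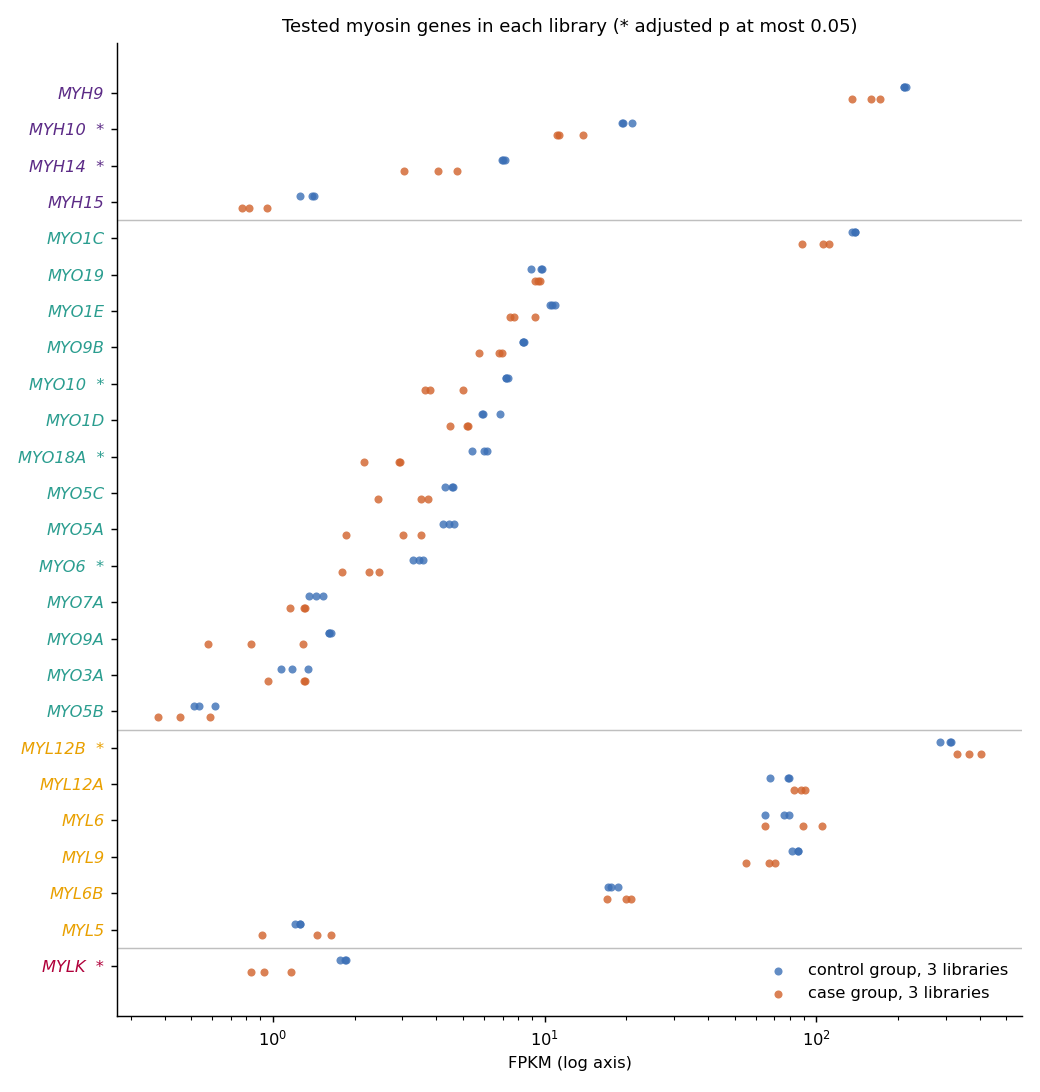
FPKM of 25 of the 26 tested myosin genes in each library on a log axis, with the control libraries in blue and the case libraries in orange, ordered by class and mean level. *MYL12B*, *MYH9* and *MYO1C* had the highest mean FPKM of their classes, a rank that rests on the exonic lengths behind the FPKM. In 14 of 19 heavy chains every case library lay below every control library after scaling, as in 20.4% of all tested genes and 42.6% of those in the heavy chains' range of length.

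The heavy chains of non-muscle myosin II are described first. *MYH9* (chr22:36281280-36388010, minus strand, GRCh38), the heavy chain of myosin IIA, was the most abundant heavy chain, with 213, 210.5 and 210.5 FPKM in the control group and 170.7, 159 and 135 in the case group. The groups did not overlap, and the case libraries stood at 77.0% of the control mean after scaling. Its log2 fold change was -0.38 (SE 0.10), with an adjusted p of 0.0510, which narrowly missed the threshold, and the gene held 18594 to 35592 reads in each library. Of the fits that left out a library, *MYH9* passed only in that without case replicate 1 (adjusted p = 0.0159). Without case replicate 3 its log2 fold change was -0.28 (adjusted p = 0.136).

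*MYH10* (chr17:8474207-8631376, minus strand), the heavy chain of myosin IIB, which holds tension longer than myosin IIA, stood at 19.3, 21.0 and 19.5 FPKM in the control group and at 11.3, 13.8 and 11.1 in the case group. It fell by 0.65 on the log2 scale (SE 0.10, adjusted p = 0.0121), to 63.7% of the control. *MYH14* (chr19:50188186-50310542, plus strand), the heavy chain of myosin IIC, stood at 6.95, 7.12 and 7.06 FPKM against 4.77, 4.06 and 3.05. The control libraries were nearly equal and the case libraries were all lower, with a log2 fold change of -0.76 (SE 0.16, adjusted p = 0.0253). It did not pass once the libraries were corrected for exonic length, as described further on (-0.55, adjusted p = 0.0942). The remaining conventional chain that was tested, *MYH15*, had 1.39, 1.42 and 1.26 FPKM against 0.770, 0.818 and 0.956, without overlap but with an adjusted p of 0.0651.

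*MYH9* therefore made up most of the summed FPKM of the myosin II heavy chains in both groups. Its share of the summed FPKM of *MYH9*, *MYH10* and *MYH14* averaged 88.7% ± 0.437 in the control libraries and 90.6% ± 0.756 in the case libraries (SD, n = 3 each), while that of *MYH14* was 2.95% and 2.30%. Neither share overlapped between the groups, and both differences had an exact two-sided permutation p of 0.1, the smallest that 3 libraries against 3 allow. The shares rest on exonic lengths of 8959, 9011 and 9905 bases for *MYH9*, *MYH10* and *MYH14*. Their canonical transcripts have 7451, 7707 and 6914 bases. By transcript length the share of *MYH14* would be larger in each library, and such shares were not calculated.

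Among the unconventional heavy chains, *MYO18A* (chr17:29071122-29180398, minus strand) had the largest log2 fold change of the tested members. This myosin binds the Golgi protein GOLPH3 and pulls on Golgi membranes. It stood at 5.97, 6.15 and 5.41 FPKM in the control group and at 2.94, 2.90 and 2.17 in the case group, or 48.7% of the control mean after scaling. It fell by 1.04 on the log2 scale (SE 0.14, adjusted p = 0.00951). *MYO10* (chr5:16661907-16936288, minus strand), which builds filopodia, had 7.22, 7.32 and 7.22 FPKM against 3.62, 5.03 and 3.79. The control values were nearly equal, the case values were all lower, and the log2 fold change was -0.73 (SE 0.12, adjusted p = 0.0143), or -0.42 after the correction for length, where it still passed (adjusted p = 0.0236). *MYO6* (chr6:75749201-75919537, plus strand), the myosin that moves toward the pointed end of actin and serves endocytosis at the apical membrane, had 3.29, 3.58 and 3.45 FPKM against 1.79, 2.47 and 2.27, with a log2 fold change of -0.57 (SE 0.12, adjusted p = 0.0262).

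The most abundant unconventional myosins did not pass the test. *MYO1C*, a single-headed motor that links membranes to actin, had 138, 139 and 136 FPKM against 111, 105 and 88.6, with no overlap, a log2 fold change of -0.36 (SE 0.10) and an adjusted p of 0.0533. *MYO1E*, another membrane-linked motor of class I, was close to it, with 10.7, 10.9 and 10.5 FPKM against 7.48, 9.18 and 7.70 and an adjusted p of 0.0513. *MYO19*, which sits on the outer membrane of mitochondria, showed 9.71, 8.94 and 9.82 FPKM against 9.61, 9.21 and 9.45, so the libraries of both groups ran together (log2 fold change 0.07, SE 0.09). It shares 1042 exonic bases with *ZNHIT3* on the opposite strand. The vesicle carriers *MYO5A* and *MYO5C* and the class IX motors *MYO9A* and *MYO9B* had log2 fold changes of -0.62, -0.41, -0.78 and -0.29, each without overlap between the groups after scaling and each with an adjusted p over 0.05 (0.0679, 0.0933, 0.0696 and 0.0989). *MYO1D*, of class I, was likewise without overlap, at -0.25 and an adjusted p of 0.130. The low-abundance members *MYO3A*, *MYO5B* and *MYO7A*, of which *MYO3A* and *MYO7A* are best known from the sensory hair cells of the ear and *MYO5B* carries recycling endosomes, had at most 1.53 FPKM in any library and log2 fold changes of 0.06, -0.14 and -0.11.

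The low case values did not all come from the same library, though some members leaned on a single library. Without case replicate 1 the log2 fold change of *MYO5A* was -0.38 in place of -0.62, and that of *MYO5C* was -0.25 in place of -0.41. Without case replicate 3 that of *MYO9B* was -0.19 in place of -0.29. After scaling, the lowest of the 3 case values was in case replicate 1 for 8 of the 19 heavy chains, among them *MYO10*, *MYO6*, *MYO5A* and *MYO9A*. It was in case replicate 3 for another 8, among them *MYH9*, *MYH10*, *MYH14*, *MYO18A* and *MYO1C*, and in case replicate 2 for 3. Thus the 3 non-muscle myosin II heavy chains shared their lowest library. Over the tested genes of the same range of length, 59.0% were lowest in case replicate 1, 12.5% in case replicate 2 and 28.5% in case replicate 3.

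**Figure D2:**
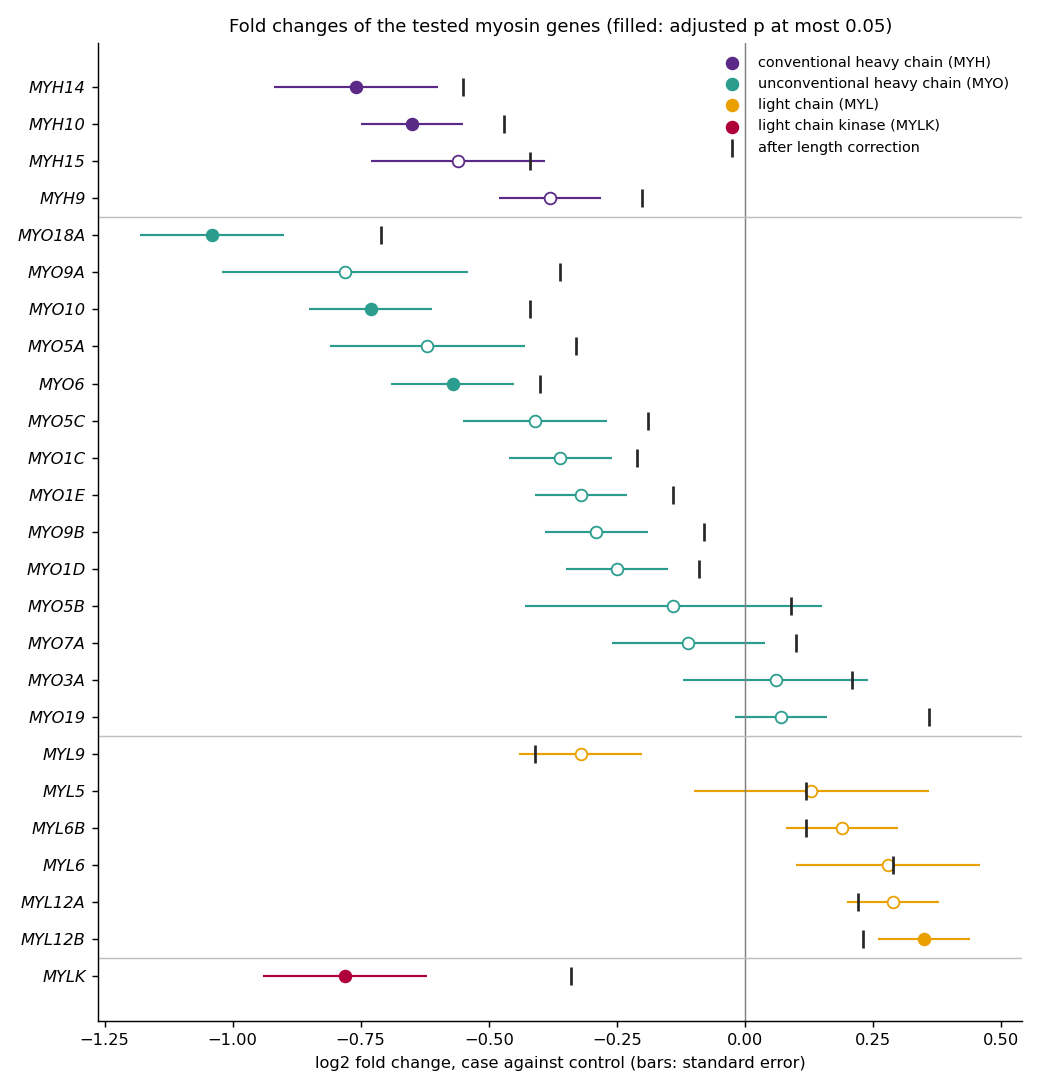
Log2 fold change of the case group against the control group for 25 of the 26 tested myosin genes, with the standard error as a bar, filled circles for DE genes and a black tick for the value after correction for exonic length. The 4 conventional heavy chains and the unconventional heavy chains shown other than *MYO3A* and *MYO19* lay below 0, and 5 of 6 light chains lay above it.

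Of the 6 tested light chains, 1 was upregulated, 0 were downregulated and 5 did not pass the test. Class II myosins outside muscle use a regulatory light chain from *MYL9*, *MYL12A* or *MYL12B* and an essential light chain from *MYL6*, and *MYL6B* encodes a close relative of the latter. *MYL12A* and *MYL12B* are neighbours on chromosome 18 (chr18:3247481-3256236 and chr18:3261479-3278461, both on the plus strand), and *MYL9* lies on chromosome 20 (chr20:36541497-36551447, plus strand). The 3 genes encode nearly the same protein, and the coding stretch around the phosphorylated threonine and serine is shown because it tells how far apart the transcripts are. The stretches below are 60 coding bases each, from the canonical transcripts of GENCODE 44 on GRCh38, starting at coding base 34 in *MYL12B* and *MYL9* and at coding base 31 in *MYL12A*. Capitals mark the codons for the threonine and the serine that the light chain kinases phosphorylate, which are codons 19 and 20 counted from the start codon in *MYL12B* and *MYL9*, and 18 and 19 in *MYL12A*.
MYL12B: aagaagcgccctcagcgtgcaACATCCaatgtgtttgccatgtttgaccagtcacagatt
MYL12A: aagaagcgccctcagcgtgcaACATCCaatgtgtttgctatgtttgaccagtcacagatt
MYL9: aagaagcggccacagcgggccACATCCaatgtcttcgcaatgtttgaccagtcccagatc

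Over this stretch *MYL12A* had 1 mismatch with *MYL12B*, and *MYL9* had 9, and over the whole coding sequence *MYL12A* and *MYL9* were 92.8% and 80.8% identical to *MYL12B*. The longest run of bases that the *MYL12A* transcript shared exactly with *MYL12B* was 77, shorter than a read of 150 bases, so none of the read-length windows of one occurred in the other. How reads with mismatches were assigned to these copies is not given in the sources used here, and the split between *MYL12A* and *MYL12B* is uncertain to that extent.

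*MYL12B* had the highest FPKM of the family, with 309.9, 311 and 285 in the control group and 330.2, 364 and 404 in the case group. This rank rests on the exonic lengths behind the FPKM, 1761 bases for *MYL12B* and 4609 for *MYL6*. Their canonical transcripts have 1163 and 708 bases, so the rank may not hold by transcript length. All case libraries were higher for *MYL12B*, which rose by 0.35 on the log2 scale (SE 0.09, adjusted p = 0.0417). The call held in 6 of the 14 other settings tried on all 6 libraries. Among other settings, it was lost with quantile normalization (log2 fold change 0.07, adjusted p = 0.615), on the TPM scale (0.15, adjusted p = 0.236) and after the length correction (0.23, adjusted p = 0.131), and the fit with the replicate number as a block gave an adjusted p of 0.0724. *MYL12A* had 78.7, 67.7 and 79.1 FPKM against 87.7, 82.5 and 90.5, also without overlap, but with an adjusted p of 0.0772 (log2 fold change 0.29, SE 0.09). *MYL9*, the form that is most abundant in smooth muscle, had 85.7, 85.4 and 81.3 FPKM against 70.5, 55.1 and 67.2. Here all case libraries were lower, the reverse of its paralogs, and the log2 fold change of -0.32 (SE 0.12) did not pass the test (adjusted p = 0.104). It was -0.19 without case replicate 2 (adjusted p = 0.0980) and -0.41 without case replicate 1, where it passed (adjusted p = 0.0388).

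The composition of the regulatory light chain transcripts differed accordingly. *MYL9* held 18.1%, 18.4% and 18.2% of the summed FPKM of the 3 genes in the control libraries and 14.4%, 11.0% and 12.0% in the case libraries. *MYL12B* held 65.3%, 67.0% and 64.0% against 67.6%, 72.6% and 71.9%. Neither share overlapped between the groups (exact two-sided permutation p = 0.1 for each, the smallest possible), while the share of *MYL12A* overlapped (p = 0.7, exact permutation test). The shares rest on exonic lengths of 2821, 3245 and 1761 bases for *MYL9*, *MYL12A* and *MYL12B*. Their canonical transcripts have 2786, 958 and 1163 bases. By transcript length the share of *MYL9* would be smaller in each library, and such shares were not calculated.

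The essential light chains did not separate the groups. *MYL6* had 76.2, 64.6 and 79.4 FPKM against 89.0, 64.7 and 104.5, and *MYL6B* had 18.6, 17.5 and 17.1 against 19.995, 17.0 and 20.8. Case replicate 2 was within or below the control range for both genes, and the other case libraries were above it. Their adjusted p-values were 0.303 and 0.252, and of the fits that left out a library, both passed only without case replicate 2 (0.0213 and 0.0321). The genes overlap by 89 exonic bases on the same strand, and *MYL6* shares 719 exonic bases with *SMARCC2* on the opposite strand, where reads cannot be assigned without knowing the strand protocol, which is not given in the sources used here. *MYL5*, a rare light chain that shares 571 exonic bases with *ATP5ME* on the opposite strand, had 0.912 to 1.63 FPKM and overlapping groups.

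Of the kinases, only *MYLK* was tested. It encodes the calcium- and calmodulin-dependent kinase that phosphorylates the regulatory light chain and lies at chr3:123610049-123884332 on the minus strand. It had 1.77, 1.84 and 1.85 FPKM in the control group and 0.929, 1.17 and 0.828 in the case group, from 282 to 732 reads in a library. It fell by 0.78 on the log2 scale (SE 0.16, adjusted p = 0.0237), to 58.3% of the control. With 22167 exonic bases it was the longest tested member, and after the length correction its log2 fold change was -0.34 and did not pass (adjusted p = 0.193). The antisense gene *MYLK-AS1* overlaps 612 of its exonic bases. The kinases *MYLK2*, *MYLK3* and *MYLK4*, forms of skeletal and cardiac muscle or of little known function, had at most 14 reads in any library.

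The promoters of the tested genes were searched for 4 short motifs in RefSeq windows of 250 bases before to 50 after an annotated start (GRCh38.p14). Of the 26 genes, 23 had a window. For 4 of these (*MYH14*, *MYH15*, *MYLK* and *MYO19*) it lay more than 1000 bases from the 5′ end of the gene in GENCODE 44, for *MYLK* at an internal start 263784 bases from that end, and these were left out. Of the remaining 19 genes, the letters GGGCGG stood in 17 and in 44.95% of all 35116 windows, CATTCC stood in 3 and in 14.03%, and TATAAA stood in 0 and in 11.53%. The CArG box, the element bound by serum response factor and found in many contractile genes, stood in 1, *MYO1E*, and in 1.29% of all windows. The members are counted as genes and the background as single windows, and some genes, such as *MYL12B* and *MYO1C*, have several windows. The shares are therefore not strictly comparable. All were searched on both strands, and the matches are descriptions of the sequence only.

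The question of long against short chains was taken up next, since the 2 kinds of chain also differ in length. The tested heavy chain genes had exons of 7694 to 20253 bases and the light chain genes of 1761 to 4609, as implied by the FPKM values. The median log2 fold change was -0.38 over the 19 heavy chains and 0.24 over the 6 light chains, a difference of -0.61, beside a median of -0.00 over all tested genes. By library, the median deviation from the control mean was -0.38, -0.28 and -0.47 in case replicates 1, 2 and 3 for the heavy chains, and 0.32, -0.09 and 0.39 for the light chains. The light chain medians cover genes that differ among themselves, and in case replicate 2 *MYL12B* and *MYL12A* were at 0.30 and 0.17. All tested genes in the heavy chains' range of length had medians of -0.33, -0.08 and -0.23 in the same libraries, and after the correction for length the heavy chain medians were -0.09, -0.19 and -0.25. The value of case replicate 1 was thus close to that of long genes in general.

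Over the whole table, fold changes sloped with length in the same direction. The median log2 fold change of all tested genes was 0.16 in those of up to 1500 bases and -0.36 in those over 15000 bases, and the share that was downregulated went from 1.46% to 22.3%. The 2495 tested genes in the length range of the heavy chains, which include these, had a median of -0.21, with 13.8% downregulated and 2.00% upregulated. The heavy chains had 26.3% and 0% beside them. In this range of length 42.6% of the genes were lower without overlap, 34.5% were lower at an unadjusted p under 0.05 and 29.7% were downregulated in voom, beside 73.7%, 73.7% and 63.2% of the heavy chains. The 4915 tested genes in the length range of the light chains had a median of 0.09, with 2.97% downregulated and 11.3% upregulated, beside 0% and 16.7% of the 6 light chains. So long genes in general were lower in the case group and short genes higher, by less than the medians of the myosin heavy and light chains.

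**Figure D3:**
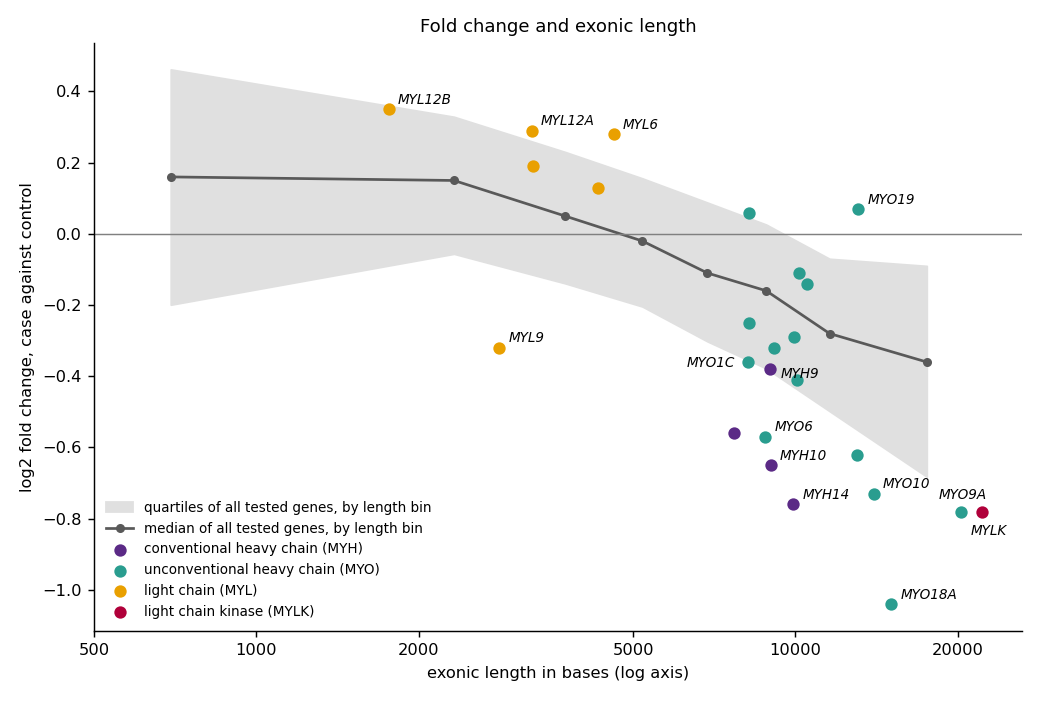
Log2 fold change against exonic length (log axis) for 25 of the 26 tested myosin genes, with the median of all tested genes in 8 bins of length as a line and the range between the quartiles as a grey band. *MYO18A*, *MYH10*, *MYH14*, *MYO6* and *MYL9* were among the genes below the band, and *MYO19* and *MYL6* among those above it.

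When each library was corrected for exonic length by a smooth curve over all tested genes, the median was -0.20 over the heavy chains and 0.17 over the light chains, a difference of -0.37. Of the heavy chains, 14 of 19 stayed below 0, and *MYO5B* and *MYO7A* were among those that moved above it beside *MYO3A* and *MYO19*. The DE genes were then *MYO18A* (-0.71, adjusted p = 0.0380), *MYH10* (-0.47, adjusted p = 0.0164), *MYO10* (-0.42, adjusted p = 0.0236) and *MYO6* (-0.40, adjusted p = 0.0418), to which *MYL9* was added (-0.41, adjusted p = 0.0372). *MYH14*, *MYLK* and *MYL12B* no longer passed, with log2 fold changes of -0.55, -0.34 and 0.23 and adjusted p-values of 0.0942, 0.193 and 0.131. *MYH9* was at -0.20 with an adjusted p of 0.319. In this fit 4.07% of all tested genes were downregulated and 6.81% upregulated.

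For myosin II itself the chains were summed. The heavy chains *MYH9*, *MYH10* and *MYH14* together had 239, 239 and 237 FPKM in the control group and 187, 177 and 149 in the case group. The regulatory light chains *MYL9*, *MYL12A* and *MYL12B* together had 474, 464 and 445 FPKM against 488, 501 and 562. The groups did not overlap in either sum of these FPKM, which are as deposited and not scaled between libraries, nor after median-of-ratios scaling. On the TPM scale, tried after the data were seen, the regulatory light chain sums were 1614, 1606 and 1508 against 1509, 1616 and 1740 and overlapped (exact two-sided permutation p = 0.4), while the heavy chain sums did not overlap. For every 100 FPKM of regulatory light chain there were 50.5, 51.4 and 53.2 FPKM of heavy chain in the control libraries and 38.2, 35.4 and 26.6 in the case libraries (51.7 ± 1.40 against 33.4 ± 6.08, SD, n = 3 each, exact two-sided permutation p = 0.1, the smallest possible). The log2 ratio differed by -0.65, and by -0.49 to -0.75 when any one library was left out. This ratio sets long genes against short ones and so holds the slope with length. From length-corrected values, a calculation added after the data were seen, it was 46.3, 44.95 and 49.1 against 47.2, 34.2 and 30.2, so that case replicate 1 lay within the control range (log2 difference -0.36, exact two-sided permutation p = 0.3). The essential light chains, summed over *MYL6* and *MYL6B*, overlapped between the groups (p = 0.5, exact permutation test).

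**Figure D4:**
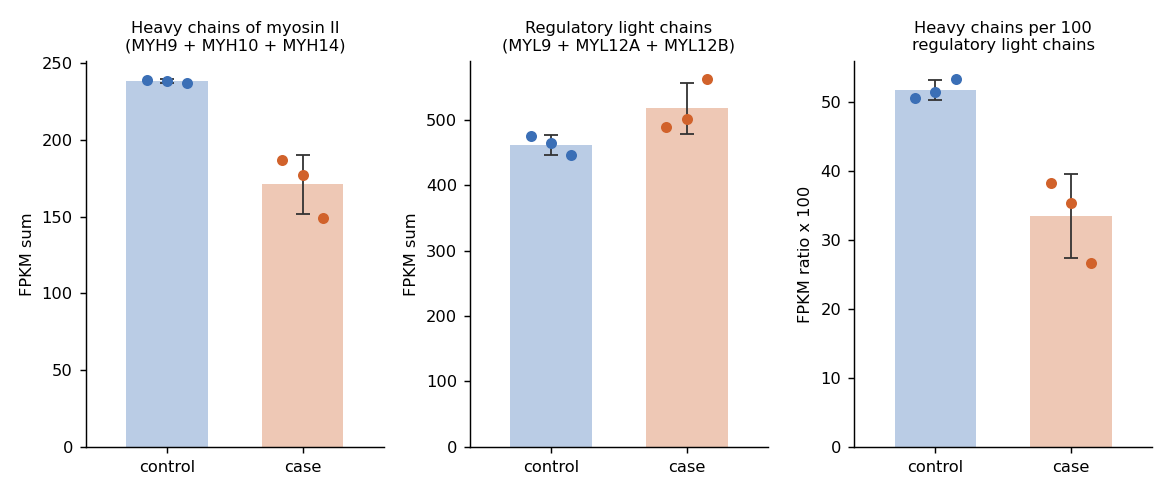
Summed FPKM, as deposited, of the myosin II heavy chains, of the regulatory light chains, and the heavy chain FPKM per 100 FPKM of regulatory light chain, as mean (bar), SD (error bar) and single libraries (points), with n = 3 in each group. The heavy chain sum was lower and the light chain sum higher in each case library than in any control library, though the light chain sums overlapped on the TPM scale, and the ratio, which is not corrected for length, went from 51.7 to 33.4.

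Some calls were lost when a control library or case replicate 3 was left out, which also leaves fewer libraries for the fit. Without control replicate 1, 2 or 3, the adjusted p of *MYO18A* was 0.0510, 0.0592 and 0.0465 and that of *MYH10* was 0.0575, 0.0713 and 0.0598, with log2 fold changes that stayed between -1.0 and -1.09 and between -0.61 and -0.67. In each of these 3 fits and in the fit without case replicate 3, *MYO10*, *MYLK*, *MYH14*, *MYO6* and *MYL12B* did not pass (adjusted p of 0.0572 to 0.155), and all 7 genes passed without case replicate 1 and without case replicate 2. The number of DE genes over the whole table also fell in those 4 fits, to between 69 and 192 from 1792. When all 6 libraries were used, *MYO18A* and *MYH10* passed under each of the 14 other settings tried.

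The 23 members below the filter were mostly the muscle, sensory and blood cell forms. *MYH7*, *MYH13*, *MYL3* and *MYL11*, heavy and light chains of striated muscle, were listed at 0 in all 6 libraries. *MYH11*, the smooth muscle heavy chain, had 6 to 16 reads in a library, and *MYH3*, the embryonic muscle chain, had 20 to 34. *MYO15B*, *MYO1F*, *MYO15A* and *MYO1G* were counted at up to 60, 34, 34 and 24 reads. In *MYO1G*, a membrane myosin of blood cells, the reads were 22, 24 and 22 in the control group and 10, 3 and 3 in the case group, which are given as counts only, since the gene was below the filter on FPKM. *MYO1A* and *MYO7B*, myosins of the intestinal and renal brush border, had at most 3 reads.

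Markers of other cell types were set beside these values. Of the markers of skeletal and cardiac muscle, 14 were in the table and 2 passed the filter, *TNNT1* and *TNNC1*. The list summed to 23.0, 23.7 and 24.7 FPKM in the control group and 20.7, 15.4 and 16.7 in the case group, most of it *TNNT1*, and *TNNC1* was downregulated by 0.95 on the log2 scale (adjusted p = 0.0143). The defining genes *DES* and *TTN* were at or below 0.0243 FPKM. Smooth muscle markers, with 7 in the table, summed to between 11.9 and 12.96 FPKM in all libraries, led by *SMTN* and *TAGLN*, with *ACTA2* and *CNN1* at or below 0.116 FPKM. The 4 endothelial markers summed to at most 0.0886 FPKM. Of the blood cell markers, 3 were in the table, and *CD14* was downregulated, with 0.882, 0.621 and 0.915 FPKM against 0.286, 0.231 and 0.276 (adjusted p = 0.0384). The list of epithelial and tubule markers, which also holds the intermediate filament gene *VIM*, summed to 1321, 1269 and 1401 FPKM against 1443, 1080.0 and 1212. In it *CDH1*, the adhesion molecule E-cadherin, was downregulated (log2 fold change -0.64, adjusted p = 0.0156). *VIM*, with 91.1 to 161.8 FPKM of these sums, was upregulated. The part of these shifts in the myosin values was not tested.

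The enzymes and scaffolds that regulate myosin II were taken as a list of 37 genes in the table, of which 34 were tested. This list and those that follow were chosen with earlier results of these data known. Their shares are therefore descriptions of the lists and not tests. In limma 0 were upregulated and 6 downregulated (17.6% against 5.84% of all tested genes), and the median log2 fold change was -0.22, or -0.07 after the length correction. The tested regulators had a median of 7601 exonic bases. Of all tested genes of over 6000 and up to 8000 bases, 8.02% were downregulated and 3.74% upregulated. At an unadjusted p under 0.05, 4 were higher (11.8% against 16.8% of all tested genes) and 13 lower (38.2% against 16.2%), and in voom 2 were upregulated (5.88% against 9.42%) and 10 downregulated (29.4% against 10.9%). Kinases that act on the light chain or on its phosphatase were among them. *CDC42BPG* had 2.06, 2.31 and 2.23 FPKM against 0.793, 0.979 and 0.937 (log2 fold change -1.13, adjusted p = 0.00787), and *CDC42BPB* had 20.6, 20.5 and 20.1 against 10.5, 14.005 and 9.27 (-0.80, adjusted p = 0.0150). Both encode MRCK kinases, effectors of the GTPase CDC42. *CIT*, the citron kinase of the cleavage furrow, had a log2 fold change of -0.55 (adjusted p = 0.0322). *PPP1R12A*, which targets the phosphatase to myosin and so opposes these kinases, was downregulated as well (-0.64, adjusted p = 0.0379). So were *LIMCH1*, an activator of non-muscle myosin II (-0.69, adjusted p = 0.0149), and *ARHGEF12*, an exchange factor for RhoA (-0.68, adjusted p = 0.0498).

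*RHOA* itself had 195, 200.1 and 194 FPKM against 198, 186 and 193. This gene and *MYLIP*, *CALM2* and *CALM3* did not pass the test. Nor did the kinases *ROCK1*, *ROCK2* and *DAPK3*, with log2 fold changes of -0.29, -0.48 and 0.40 (adjusted p = 0.465, 0.228 and 0.0799). *DAPK3* was higher in every case library than in any control library after scaling. After the length correction *CDC42BPG*, *CDC42BPB* and *LIMCH1* passed, and *CIT*, *PPP1R12A* and *ARHGEF12* did not (adjusted p = 0.0953, 0.0624 and 0.173).

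The genes of the actin filament and its binding proteins numbered 24, with 19 tested, 5 downregulated (26.3% against 5.84% of all tested genes), 0 upregulated (against 7.34%) and a median log2 fold change of -0.32 in limma, or -0.16 after the length correction. The tested genes of this list had a median of 6616 exonic bases. Of all tested genes of over 6000 and up to 8000 bases, 8.02% were downregulated and 3.74% upregulated. At an unadjusted p under 0.05, 10 were lower (52.6% against 16.2%) and 0 higher (against 16.8%), and in voom 9 were downregulated (47.4% against 10.9%) and 0 upregulated (against 9.42%). *CGN*, the tight junction protein cingulin, which binds myosin II, had 6.59, 7.43 and 6.64 FPKM against 3.06, 3.00 and 2.81 (-1.12, SE 0.10, adjusted p = 0.00209). It passed in the fit without any one library. *SYNPO*, *FLNA*, *FLNC* and *CNN2*, which bundle, crosslink or stabilise actin, followed with log2 fold changes of -0.63, -0.60, -0.53 and -0.49. The cytoplasmic actins had values without overlap, with 1802, 1813 and 1721 FPKM against 1436, 1269 and 1302 for *ACTB*, and just missed the threshold (adjusted p = 0.0536 for *ACTB* and 0.0542 for *ACTG1*). After the length correction *CGN* and *CNN2* passed, *SYNPO*, *FLNA* and *FLNC* did not (adjusted p of 0.108 to 0.120), and both actins passed (0.0199 and 0.0165).

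The adaptors that tie unconventional myosins to their cargo were listed with other partners of these myosins and are called adaptors here. These 29 genes, with 24 tested, had 3 downregulated and 3 upregulated (12.5% each, against 5.84% and 7.34% of all tested genes) and a median of -0.04. The list holds genes that are not cargo adaptors, such as *VIM*, which is also on the epithelial and tubule list. At an unadjusted p under 0.05, 4 were lower (16.7% against 16.2%) and 5 higher (20.8% against 16.8%), and in voom 3 were downregulated (12.5% against 10.9%) and 4 upregulated (16.7% against 9.42%). The even balance depended on the scaling. On the TPM scale 7 adaptors were downregulated and 1 upregulated, beside 2387 and 383 of all 13599 tested genes. For *MYO6*, the adaptor *TOM1L2* was downregulated, with 2.24, 2.17 and 2.37 FPKM against 1.15, 1.36 and 1.13 (-0.78, adjusted p = 0.0150), and so was its partner kinase *LMTK2* (-0.50, adjusted p = 0.0231). Its autophagy adaptor *OPTN*, in contrast, was upregulated, with 22.9, 25.3 and 23.5 FPKM against 27.9, 29.6 and 31.7 (0.39, adjusted p = 0.0231). *RAB10*, a GTPase of membrane traffic, was upregulated (0.33, adjusted p = 0.0281), as was the intermediate filament gene *VIM* (0.66, adjusted p = 0.0204). *USH1C*, the harmonin scaffold of microvilli, was downregulated (-0.43, adjusted p = 0.0432). It did not pass in the fit with the replicate number as a block (adjusted p = 0.0629). *GOLPH3*, the Golgi partner of *MYO18A*, had 52.3, 53.2 and 64.8 FPKM against 60.1, 67.4 and 66.6, and did not pass (adjusted p = 0.0961). All 6 DE adaptors also passed after the length correction. Of the fits that left out a library, *CDC42BPG* passed in 4 of 6, *ARHGEF12* and *USH1C* in 1, and the other DE genes of the 3 lists in 2, apart from *CGN*.

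**Figure D5:**
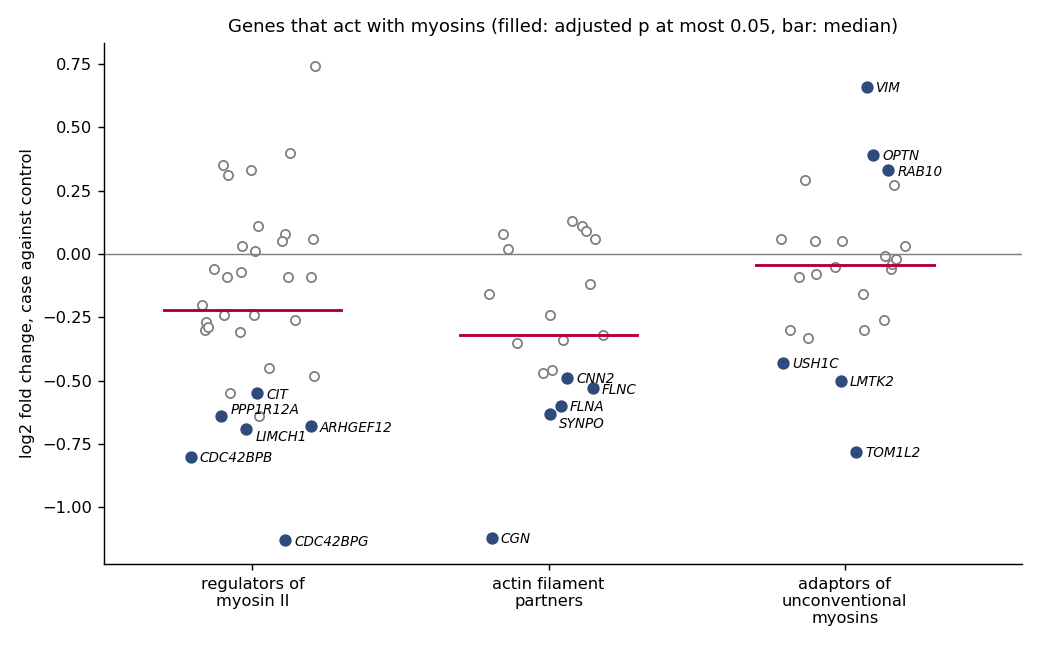
Log2 fold change of the tested genes in the lists of myosin II regulators, actin filament partners and adaptors of unconventional myosins, with filled circles for DE genes and a red bar for the median of each list. The medians were -0.22, -0.32 and -0.04, and -0.07, -0.16 and -0.00 after the length correction, which is not drawn.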

How the data were processed

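FPKM values deposited by the authors were used. Per the labels, reads were aligned to GRCh38.p13 with HISAT2 2.1.0 and counted per gene with HTSeq 0.6.0. RNA selection, strandedness and annotation version are not given in the sources used here. Symbols and coordinates came from GENCODE 44, and 29063 of 29483 identifiers matched. Reads per gene and exonic lengths were recovered from the steps of the FPKM values. FPKM were divided by median-of-ratios factors, 0.1 was added, and log2 values of the 13599 genes whose FPKM averaged 0.5 or more were fitted in limma 3.58.1 (R 4.3.3) with an intensity trend and no covariate. P-values were adjusted over all tested genes by Benjamini-Hochberg, and fold changes of low genes are understated on this scale. The fit was tested on simulated data, but no outcome of that test is given and no result here rests on it. One tested member and its values are not reported here. The alternatives were other pseudocounts, filters, scalings and weights, voom on recovered reads, a loess correction for length, a replicate block and each library left out. Named genes were the DE members, the 4 most abundant of each class, the chains of non-muscle myosin II and up to 8 DE genes of each list. *MYH15*, *MYO5A*, *MYO5C* and other members, and list genes outside this rule, were named to complete a class or after their values were seen. Members and lists were chosen with earlier results of these data known.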

Additional observations from a re-analysis of the deposited data

How the results depend on the processing

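Precision was limited by 3 libraries a group and by the wider spread of the case group. Members under a mean of 0.5 FPKM were left out of the test by that filter. No tested result changed from a called value of one sign to a called value of the other. Without a filter on low values, 347 genes were upregulated and 177 downregulated, with 0 and 3 myosin genes, 3 regulators and 1 filament partner downregulated, and 1 adaptor in each direction. Unscaled FPKM gave 662 upregulated and 1124 downregulated genes, with 0 and 11 myosin genes and 8 downregulated filament partners. The medians there were -0.40 over the members and -0.45 over the heavy chains. TPM moved the median of all tested genes to -0.19 and gave 383 upregulated and 2387 downregulated genes, with 0 and 16 myosin genes, 13 regulators and 12 filament partners downregulated, 1 and 7 adaptors, and medians of -0.52 over the members, -0.58 over the heavy chains and 0.04 over the light chains. The log2 difference in the sums of myosin II heavy chains and of regulatory light chains was -0.61 and 0.04 there, in place of -0.49 and 0.16 on FPKM as deposited. On that scale *MYL5* and *MYL6B* were below 0. *MYO19* and *MYO3A* were below 0 on the TPM and the unscaled FPKM scales. Without the intensity trend, 436 genes were upregulated and 416 downregulated, with 0 upregulated myosin genes and adaptors, and 3 regulators and 2 filament partners downregulated. Array weights gave 2859 and 2843, with 4 and 15 myosin genes, 4 and 12 regulators, 11 downregulated filament partners, 5 upregulated adaptors and a heavy chain median of -0.46. Voom on recovered reads gave 1281 and 1485, with 2 and 13 myosin genes, 2 and 10 regulators and 9 downregulated filament partners. Quantile normalization gave 873 upregulated and 895 downregulated genes, with 0 and 10 myosin genes, 10 downregulated filament partners and a heavy chain median of -0.48. A mean FPKM of at least 1 gave 1088 upregulated and 946 downregulated genes of 11663 tested, with 8 downregulated filament partners. The length correction gave 926 upregulated and 554 downregulated genes, with 0 upregulated myosin genes and 3 downregulated regulators. Its medians were -0.17 over the members and -0.20 over the heavy chains. As a value added after the data were seen, it gave a log2 difference of -0.36 in the ratio of myosin II heavy to regulatory light chain. The cause of the other differences was not tested.

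With the replicate number as a block, 848 genes were upregulated and 762 downregulated, with 0 upregulated myosin genes. *MYL12B* and *USH1C* no longer passed (adjusted p = 0.0724 and 0.0629) and *MYO5A* passed (0.0446). Libraries of the same number deviated from their group means with correlations of 0.063, 0.1 and -0.053. Those of unlike number had correlations from -0.182 to 0.117. With 3 libraries a group, these values cannot tell whether libraries of any number shared a culture or a batch. The replicate block with the length correction gave 557 and 338, with 0 and 2 myosin genes, 2 downregulated regulators, 0 downregulated adaptors and medians of -0.17 and -0.20 over the members and the heavy chains.

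When each library was left out in turn, upregulated genes numbered 55 to 1813 and downregulated genes 14 to 1682. Upregulated and downregulated myosin genes numbered 0 to 4 and 0 to 11, regulators 0 to 3 and 0 to 12, filament partners 0 to 0 and 1 to 9, and adaptors 0 to 4 and 0 to 3. The medians ranged from -0.37 to -0.28 over the members, from -0.44 to -0.28 over the heavy chains and from 0.14 to 0.36 over the light chains, and heavy minus light from -0.81 to -0.42.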
